A study of Mus musculus with 12 samples.

Results

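The 44 genes described here are core components of apoptosis and the related necroptosis pathway: the BCL2 family, caspases and the apoptosome scaffold, proteins released from mitochondria, inhibitor of apoptosis (IAP) proteins, death receptors and their adaptors. They were named by gene symbol, with earlier results of these data known, and all 44 were found among the 55359 gene identifiers of the expression matrix, each under 1 identifier. The cells were ISOS-1, an angiosarcoma line of the mouse whose labels read endothelial and wild type, grown with serum, and transcripts were measured by sequencing of mRNA 3′ ends.

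The 12 libraries fell into 4 groups of 3. SAHA (vorinostat), an inhibitor of zinc-dependent histone deacetylases, was given at 1 µM over 24 h. VPA (valproic acid), a branched fatty acid that inhibits histone deacetylases as well, was given at 2 mM over 36 h. JQ1, which displaces bromodomain and extra-terminal (BET) proteins from acetylated chromatin, was given at 1 µM over 36 h. The fourth group was labelled DMSO, the vehicle, and no duration is given for it in the labels used here, so exposure time and drug cannot be told apart in comparisons with DMSO or with SAHA. All groups are 1 cell line in culture, and the labels do not say whether libraries of a group were grown separately. The p-values therefore reflect only how far these 12 libraries spread, and that spread may be technical.

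In the mitochondrial route to apoptosis, BH3-only proteins such as BIM (Bcl2l11) and PUMA (Bbc3) bind and block the anti-apoptotic proteins BCL2, BCL-XL (Bcl2l1) and MCL1, and BAX and BAK1 then open the outer mitochondrial membrane. Cytochrome c that escapes assembles APAF1 and caspase-9 into the apoptosome, while SMAC (Diablo) and HTRA2 relieve the block that IAP proteins place on caspases. In the death-receptor route, receptors such as FAS and TNF receptor 1 (Tnfrsf1a) recruit FADD or TRADD and activate caspase-8, which cFLIP (Cflar) restrains. Where caspase-8 is not active, RIPK1 and RIPK3 can activate MLKL, the effector of necroptosis. Most of these proteins are regulated after translation, so transcript levels give the supply of a component and not its activity.

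Values are TPM (transcript abundance scaled by gene length and by the library total), and differences are log2 changes of TPM + 1 with the standard error (SE) of the limma model. TPM keeps no read depth, so counting precision is unknown, and it scales 3′ tags by gene length, so genes are not ranked by level here. Sums of TPM over several genes are given below, and the weight of each gene in them depends on this scale. The number of genes above 0 lay between 13735 and 14799 per library. Mitochondrially encoded genes took 11.02% to 11.7% of the TPM with SAHA, 11.9% to 12.4% with VPA and 14.3% to 15.3% with JQ1, against 11.1% to 11.2% with DMSO. Results after rescaling without them and Rn18s together are given in the closing section, and their part alone was not tested. Among 12 blood endothelial markers, 3 reached 1 TPM and 4 were listed at 0 in every library (Cdh5, Vwf, Cldn5 and Erg), although the label is endothelial. A listed 0 in these data does not show that a transcript was absent. The 12 summed to 5.38 to 14.2 TPM with SAHA, 13.1 to 19.0 TPM with VPA and 11.3 to 16.6 TPM with JQ1, against 10.8 to 14.6 TPM with DMSO. Fibroblast markers summed to 1075 to 1202 TPM with SAHA, 965 to 1037 TPM with VPA and 812 to 841 TPM with JQ1, against 760 to 800.3 TPM with DMSO. Smooth muscle and pericyte markers summed to 34.4 to 39.4 TPM with SAHA, 42.9 to 51.4 TPM with VPA and 19.4 to 26.5 TPM with JQ1, against 48.0 to 60.0 TPM with DMSO, with Rgs5 and Kcnj8 at 0. Only Acta2 and Cnn1 of these 7 reached 1 TPM in any library. Epithelial markers summed to 21.9 to 25.4 TPM with SAHA, 25.3 to 35.1 TPM with VPA and 30.4 to 40.3 TPM with JQ1, against 10.8 to 12.9 TPM with DMSO, with Epcam and Krt5 at 0. Of these 6, Krt19 alone reached 1 TPM in any library, so the sum is mostly that gene. Leukocyte markers summed to at most 4.32 TPM in any library, and Adgre1 and Itgam were among those listed at 0. The part of these markers in the results below was not tested, and in bulk RNA fewer cells of a type and less RNA per cell cannot be told apart.

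Against DMSO, JQ1 gave 17 calls among the apoptosis genes, SAHA 2 and VPA 0. Of the 44 genes, 37 reached 1 TPM in at least 3 libraries and were tested, and a gene was called at an adjusted p under 0.05 (limma, Benjamini-Hochberg over 12836 genes). With JQ1, 7 of the 37 were higher and 10 were lower than in DMSO, which is 45.9% called, where 33.9% of all tested genes were called, 12.9% higher and 21% lower. With SAHA, 2 were higher and 0 lower (4 at an unadjusted p under 0.05), where 5.19% of all tested genes were called, 3.09% higher and 2.1% lower. With VPA, 0 were called by limma, with 7 at an unadjusted p under 0.05, where 4.27% of all tested genes were called. That unadjusted threshold was passed by 2513 of all 12836 tested genes with SAHA and by 2359 with VPA. The median log2 change of the 37 genes was −0.01 with SAHA, 0.04 with VPA and −0.18 with JQ1, beside 0.01, 0.06 and −0.07 over all tested genes, and the JQ1 median was 0.14 without the second JQ1 library. The share of apoptosis genes called with SAHA, 5.41%, lay near that of all genes. Over all tested genes, calls with VPA split into 379 higher and 169 lower, against 271 and 300 with median-of-ratios scaling, and calls with JQ1 into 1657 higher and 2690 lower, against 2068 and 2196 with quantile normalization. The 3 comparisons share the DMSO libraries.

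**Figure D1:**
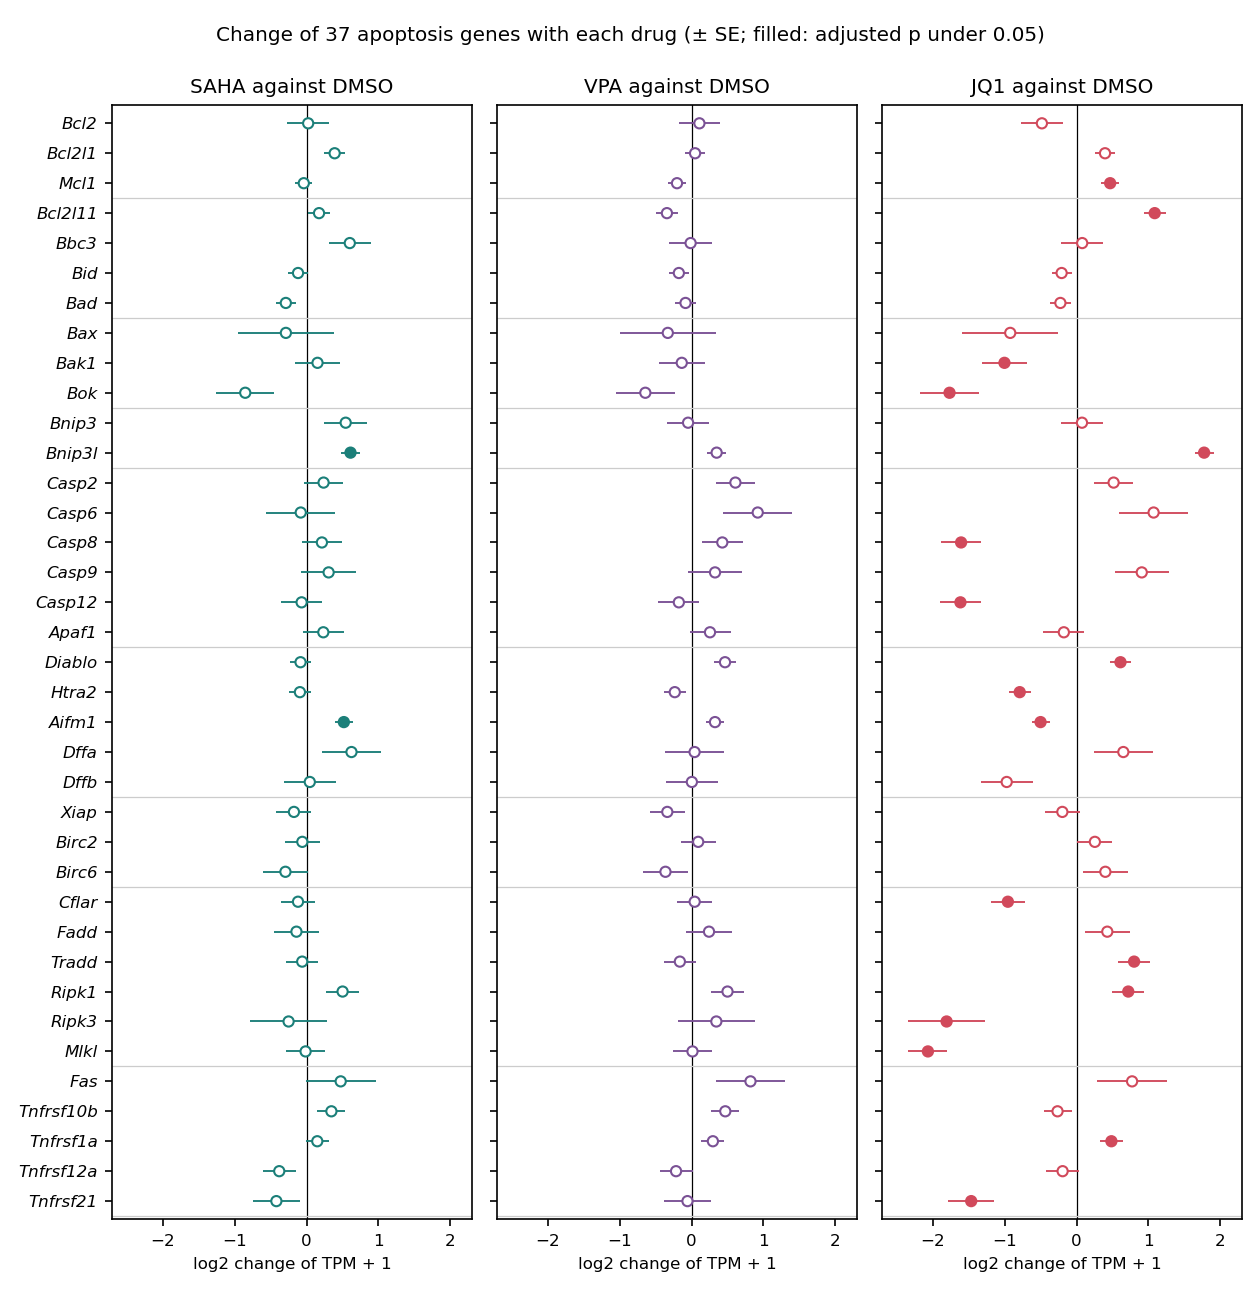
Log2 change of TPM + 1 (x axis) for 37 tested apoptosis genes (rows, grouped by role and separated by grey lines) with SAHA, VPA and JQ1, each against DMSO; points are model estimates from 3 libraries per group, bars are ± SE and filled points have an adjusted p under 0.05. Filled points number 2 with SAHA, 0 with VPA and 17 with JQ1, where they lie on both sides of 0.

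Among the anti-apoptotic BCL2 proteins, Mcl1 was higher with JQ1 and no other member was called with any drug. Mcl1, whose short-lived protein holds BIM and BAK1 in check, had 74.9, 84.4 and 80.5 TPM in JQ1 libraries, against 56.7, 66.6 and 50.3 TPM in DMSO libraries. The JQ1 and DMSO ranges did not overlap, the means were 80.0 ± 4.77 and 57.9 ± 8.18 TPM (SD, n = 3 each), and the log2 change was 0.47 (SE 0.12, adjusted p = 0.0114). Mcl1 had 62.2, 50.9 and 55.4 TPM with SAHA and 50.5, 54.5 and 45.1 TPM with VPA, both overlapping DMSO. Bcl2l1, encoding BCL-XL, had 16.2, 18.8 and 18.6 TPM with JQ1, against 12.7, 14.7 and 12.7 TPM with DMSO, which missed the threshold at a log2 change of 0.40 (adjusted p = 0.0548). The SAHA libraries had 17.7, 20.5 and 15.5 TPM of Bcl2l1, also above the DMSO range, at a log2 change of 0.39 (adjusted p = 0.162), and the VPA libraries had 12.1, 14.0 and 15.6 TPM. Under median-of-ratios scaling, Bcl2l1 was called with JQ1 at an adjusted p of 0.0188. Bcl2, the founding member of the family, stayed low in all groups: it had 1.48, 1.79 and 1.91 TPM with SAHA, 1.45, 1.78 and 2.54 TPM with VPA and 1.43, 1.15 and 0.35 TPM with JQ1, against 1.05, 2.1 and 2.02 TPM with DMSO. All groups overlapped DMSO (log2 change with JQ1 −0.48, adjusted p = 0.233). Bcl2l2, encoding BCL-W, lay between 0 and 1.09 TPM and was not tested.

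The BH3-only gene Bcl2l11 was higher with JQ1, so a transcript of an activator of apoptosis and that of its binding partner Mcl1 rose together. Bcl2l11 had 18.4, 19.8 and 18.1 TPM with JQ1, against 9.28, 8.4 and 7.31 TPM with DMSO. Every JQ1 library was above every DMSO library, and the log2 change was 1.09 (SE 0.15, adjusted p = 0.000242). With SAHA it had 10.9, 9.06 and 8.6 TPM, which overlapped DMSO, and with VPA 7.23, 6.36 and 5.51 TPM, which lay below the DMSO range but missed the threshold (log2 change −0.34, adjusted p = 0.265). Bbc3, a p53 target, had 6.86, 2.54 and 2.87 TPM with JQ1, against 3.59, 3.32 and 3.61 TPM with DMSO, and 1 JQ1 library stood above the rest (adjusted p = 0.873). The SAHA libraries had 5.72, 4.43 and 7.75 TPM of Bbc3, all above the DMSO range, without a call (log2 change 0.60, adjusted p = 0.294), and the VPA libraries had 3.35, 3.85 and 3.22 TPM. Bid, which caspase-8 cleaves to link both routes, lay between 16.5 and 24.3 TPM over all libraries, with the JQ1 libraries below the DMSO range but not called (adjusted p = 0.293), and Bad, whose binding is controlled by phosphorylation, between 41.0 and 61.2 TPM, and was not called either. Of the 4 remaining BH3-only genes, Bik and Hrk were listed at 0 in all 12 libraries, Bmf was above 0 in 2 and Pmaip1 in 4, none above 0.28 TPM. The RefSeq promoters of the called pair, Bcl2l11 (GRCm38.p6 chr2:128125788-128126087, plus strand) and Mcl1 (GRCm38.p6 chr3:95658471-95658770, plus strand), are printed because both genes were higher with JQ1. Each holds 250 bases before and 50 bases after the most upstream start, on the gene's strand, with CG dinucleotides in capitals.
Bcl2l11: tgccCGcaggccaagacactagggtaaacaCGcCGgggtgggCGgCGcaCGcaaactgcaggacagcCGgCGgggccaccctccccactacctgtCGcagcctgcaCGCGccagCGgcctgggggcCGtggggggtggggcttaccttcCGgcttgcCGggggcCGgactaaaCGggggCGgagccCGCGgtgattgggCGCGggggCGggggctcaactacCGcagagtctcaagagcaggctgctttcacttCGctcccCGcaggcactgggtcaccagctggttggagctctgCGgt
Mcl1: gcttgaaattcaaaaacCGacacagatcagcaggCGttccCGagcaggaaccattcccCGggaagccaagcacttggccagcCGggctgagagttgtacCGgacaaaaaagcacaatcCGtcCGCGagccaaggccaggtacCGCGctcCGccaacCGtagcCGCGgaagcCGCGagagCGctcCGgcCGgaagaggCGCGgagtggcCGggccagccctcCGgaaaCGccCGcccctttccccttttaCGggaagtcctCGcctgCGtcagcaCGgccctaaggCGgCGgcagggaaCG
They hold 27 and 33 CG dinucleotides, in that order.

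The pore-forming genes were lower with JQ1 or not called. Bak1, a resident pore former of the outer mitochondrial membrane, had 2.5, 2.74 and 3.87 TPM with JQ1, against 4.69, 7.61 and 9.45 TPM with DMSO, without overlap (log2 change −1.002, SE 0.32, adjusted p = 0.0311). Bok, a relative that can act without BAX and BAK1, had 0.78, 2.12 and 3.13 TPM with JQ1, against 12.1, 8.82 and 6.01 TPM with DMSO, also without overlap (log2 change −1.77, SE 0.41, adjusted p = 0.00596). Bax, the cytosolic pore former, had 3.74, 1.01 and 4.7 TPM with JQ1, against 9.08, 2.46 and 9.58 TPM with DMSO, and was not called (log2 change −0.92, SE 0.66, adjusted p = 0.325). Its spread within groups was wide, since the second library was the lowest of its group with SAHA (9.02, 0.96 and 9.35 TPM), JQ1 and DMSO but the highest with VPA (3.38, 6 and 5.06 TPM). SAHA libraries had 5.57, 6.77 and 12.8 TPM of Bak1, and VPA libraries had 7.48, 4.6 and 7.13 TPM, both overlapping DMSO. Bok lay between 2.69 and 6.54 TPM with SAHA and between 3.2 and 8.36 TPM with VPA, and was not called with either. The call of Bak1 was lost when JQ1 library 1 (adjusted p = 0.0917), JQ1 library 2 (0.0802), DMSO library 2 (0.084) or DMSO library 3 (0.111) was left out. With a pseudocount of 5, the log2 change was −0.59 for Bak1 and −0.99 for Bok.

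Bnip3l rose with JQ1 and, less, with SAHA. The gene encodes NIX, a mitochondrial BCL2-family relative known as a receptor for the removal of mitochondria by autophagy. It had 210.5, 232 and 222 TPM with JQ1, against 51.3, 67.2 and 76.3 TPM with DMSO. The means were 222 ± 11 and 64.9 ± 12.7 TPM (SD, n = 3 each), a 3.41-fold difference, and the log2 change was 1.77 (SE 0.13, adjusted p = 1.79e-06). With SAHA, Bnip3l had 95.9, 92.8 and 107.1 TPM, all above DMSO, at a log2 change of 0.61 (SE 0.13, adjusted p = 0.0234), and the SAHA call was lost with SAHA and DMSO fitted alone (0.108), without the intensity trend (0.0628) and on leaving out any SAHA library (0.0503 to 0.0809), DMSO library 1 (0.0515) or DMSO library 2 (0.0525). VPA libraries had 85.9, 86.9 and 73.6 TPM, overlapping DMSO only through the third library, without a call (log2 change 0.35, adjusted p = 0.18). Bnip3, its close relative, had 18.8, 16.4 and 19.5 TPM with JQ1, against 20.6, 17.9 and 13.7 TPM with DMSO, and was not called (adjusted p = 0.879). The summed TPM of the 44 genes was 722 to 814 with JQ1, against 608 to 672 with DMSO, and without Bnip3l the sums were 497 to 592 with JQ1, against 541 to 609.9 with DMSO, so the higher sum with JQ1 lay in this 1 gene.

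**Figure D2:**
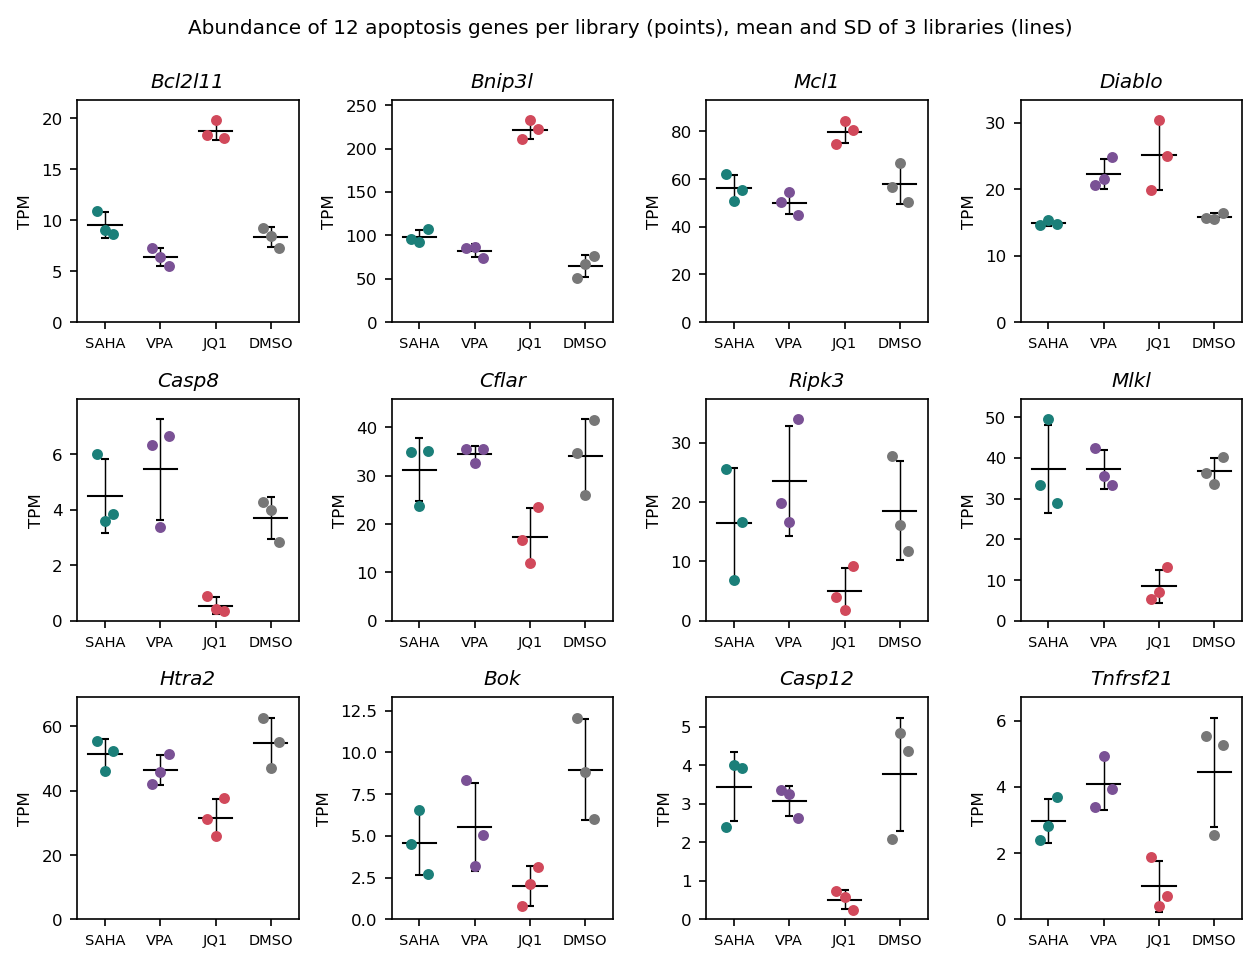
TPM (y axes, linear, from 0) of 12 of the 17 apoptosis genes called in JQ1 against DMSO; points are libraries, horizontal lines are group means and bars are SD of 3 libraries, with groups SAHA, VPA, JQ1 and DMSO from left to right. In each panel the 3 JQ1 points lie wholly above or wholly below the 3 DMSO points, and Casp8 reached at most 0.88 TPM with JQ1.

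Of the caspases and their scaffold, Casp8 and Casp12 were lower with JQ1, and the other 4 genes were not called with any drug. This is 33.3% called with JQ1, near the 33.9% of all tested genes. Casp8, the initiator caspase of the death-receptor route, had 0.88, 0.42 and 0.34 TPM with JQ1, against 4.26, 3.98 and 2.84 TPM with DMSO. This is a 6.76-fold difference of the means without overlap, and the log2 change was −1.60 (SE 0.28, adjusted p = 0.00114). The log2 change of this low gene depended on the pseudocount, at −2.62 with 0.1 and −0.65 with 5. Casp12, an endoplasmic reticulum caspase of the mouse related to the inflammatory caspases, had 0.74, 0.57 and 0.24 TPM with JQ1, against 2.09, 4.84 and 4.38 TPM with DMSO (log2 change −1.61, SE 0.29, adjusted p = 0.00118), and its log2 change was −2.66 with a pseudocount of 0.1 and −0.66 with 5. With the histone deacetylase inhibitors, Casp8 had 6.02, 3.6 and 3.86 TPM (SAHA) and 6.33, 3.36 and 6.66 TPM (VPA), overlapping DMSO. Casp9, the initiator of the mitochondrial route, had 8.59, 11.4 and 10.9 TPM with JQ1, against 4.24, 4.48 and 6.48 TPM with DMSO, which did not overlap but missed the threshold (log2 change 0.91, SE 0.38, adjusted p = 0.089). SAHA libraries had 8.94, 8.91 and 3.13 TPM of Casp9, and VPA libraries had 5.31, 11.3 and 4.45 TPM. Apaf1 had 19.7, 36.1 and 22.6 TPM with SAHA, 22.6, 32.2 and 23.3 TPM with VPA and 23.0, 11.8 and 24.2 TPM with JQ1, against 22.9, 17.98 and 23.6 TPM with DMSO, with every group overlapping. Casp6, an executioner, had 0.89, 4.57 and 0.54 TPM with SAHA and lay between 3.41 and 4.44 TPM with VPA and between 4.12 and 5.64 TPM with JQ1, against 0.45 to 2.65 TPM with DMSO (adjusted p with JQ1 = 0.109). Casp2, an initiator with roles outside apoptosis, lay between 0.36 and 2.38 TPM over all libraries (adjusted p with JQ1 = 0.17), and its VPA libraries were all above the DMSO range without a call (adjusted p = 0.257).

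Mitochondrial proteins moved in both directions with JQ1. Diablo, encoding the IAP antagonist SMAC, had 19.9, 30.4 and 25.0 TPM with JQ1, against 15.6, 15.5 and 16.5 TPM with DMSO, without overlap (log2 change 0.61, SE 0.15, adjusted p = 0.00794). With VPA, it had 20.6, 21.6 and 24.9 TPM, also above every DMSO library, but missed the threshold (log2 change 0.47, adjusted p = 0.113), and with SAHA 14.6, 15.4 and 14.7 TPM, just below the DMSO range (adjusted p = 0.819). Htra2, encoding a mitochondrial protease that also binds IAP proteins, had 31.1, 25.8 and 37.6 TPM with JQ1, against 62.6, 47.0 and 55.3 TPM with DMSO. It was lower without overlap (log2 change −0.79, SE 0.15, adjusted p = 0.00199), so both IAP antagonists were called in opposite directions. Aifm1, encoding the flavoprotein AIF that serves the respiratory chain and moves to the nucleus in some forms of cell death, was higher with SAHA and lower with JQ1. It had 57.9, 63.8 and 51.2 TPM with SAHA, 52.8, 48.8 and 48.9 TPM with VPA and 28.1, 25.6 and 30.0 TPM with JQ1, against 35.8, 47.1 and 37.3 TPM with DMSO. All SAHA and VPA libraries were above and all JQ1 libraries below the DMSO range. The log2 change was 0.52 with SAHA (SE 0.12, adjusted p = 0.0376), 0.33 with VPA (adjusted p = 0.19) and −0.50 with JQ1 (SE 0.12, adjusted p = 0.00928). The JQ1 call of Aifm1 held in all 24 alternatives. Its SAHA call was lost in 12, among them leaving out SAHA library 1 (0.0992) or 2 (0.124), DMSO library 1 (0.128) or 3 (0.116), any VPA library (0.05004 to 0.0543) or JQ1 library 1 (0.0506), and the replicate block (0.0669).

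The DNA-fragmentation genes gave no call against DMSO. Dffa, whose product is the chaperone and inhibitor of the caspase-activated nuclease, lay between 0.39 and 3.66 TPM, and Dffb, the nuclease itself, had 0.27, 0.37 and 1.98 TPM with JQ1, against 2.16, 3.01 and 2.08 TPM with DMSO (log2 change −0.97, adjusted p = 0.0582). Without the third JQ1 library, the log2 change of Dffb was −1.36 and the adjusted p 0.0094. Endog, a mitochondrial nuclease, had 0.88, 3.43 and 2.02 TPM with JQ1 and was listed at 0 in 2 SAHA libraries, 2 VPA libraries and all DMSO libraries. It reached 1 TPM in only 2 libraries and was therefore not tested. In a fit without the filter its adjusted p was 0.00951. In the GENCODE annotation of GRCm38 it overlaps Spout1, a gene on the opposite strand with a mean of 29.3 TPM, and the sources used here do not say whether counting used strand. The same limit holds for Htra2, which overlaps Aup1 (mean 112.9 TPM), for Ripk1 and Serpinb6a (59.4 TPM) and for Bak1 and Ggnbp1 (18.5 TPM under 1 of its identifiers). Ripk1 also overlaps Gm17084 (2.94 TPM) on its own strand, an overlap that counting by strand would not separate.

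None of the 3 tested IAP genes among the 44 (Xiap, Birc2 and Birc6) was called with any drug, where 33.9% of all tested genes were called with JQ1. Xiap, the direct caspase inhibitor among them, had 6.98, 7.71 and 13.2 TPM with SAHA, 7.61, 8.64 and 7.49 TPM with VPA and 7.33, 11.5 and 8.04 TPM with JQ1, against 9.6, 12.8 and 8.74 TPM with DMSO (adjusted p with JQ1 = 0.578). All Xiap values with VPA were below the DMSO range, without a call (log2 change −0.34, adjusted p = 0.518). Birc2, encoding the ubiquitin ligase cIAP1, lay between 2.99 and 6.43 TPM. Birc6, a giant ubiquitin ligase, had 33.9, 36.7 and 84.4 TPM with JQ1, where the third library stood apart, against 40.7, 24.0 and 45.7 TPM with DMSO. Birc3, encoding cIAP2, had 1 value above 0 among the SAHA and VPA libraries (0.25 TPM) and 0.67, 0.26 and 0 TPM with JQ1, against 0.54, 0.59 and 0.39 TPM with DMSO, and was not tested.

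Of the 6 adaptors and effectors below the death receptors, 5 were called with JQ1, 2 higher and 3 lower, where 33.9% of all tested genes were called. Without JQ1 library 1, only the calls of Mlkl and Cflar held. The necroptosis genes Ripk3 and Mlkl were both lower. Mlkl, the membrane-permeabilizing effector, had 5.35, 7.1 and 13.1 TPM with JQ1, against 36.3, 33.6 and 40.2 TPM with DMSO. The means differed 4.31-fold without overlap, and the log2 change was −2.07 (SE 0.27, adjusted p = 0.00014). Ripk3, the kinase that phosphorylates MLKL, had 4.04, 1.83 and 9.28 TPM with JQ1, against 27.8, 16.1 and 11.7 TPM with DMSO (log2 change −1.81, SE 0.54, adjusted p = 0.0227). These groups did not overlap but spread widely, and the call was lost without JQ1 library 1 (0.0583), JQ1 library 2 (0.0878) or DMSO library 1 (0.085). Cflar, the brake on caspase-8, had 16.6, 11.98 and 23.6 TPM with JQ1, against 34.7, 26.1 and 41.4 TPM with DMSO (log2 change −0.95, SE 0.24, adjusted p = 0.00986). SAHA and VPA libraries overlapped DMSO for all 3 genes, with 28.9 to 49.6 TPM of Mlkl, 6.93 to 34.0 TPM of Ripk3 and 23.7 to 35.6 TPM of Cflar. The promoters of Casp8 (GRCm38.p6 chr1:58802252-58802551, plus strand), Ripk3 (GRCm38.p6 chr14:55788808-55789107, minus strand) and Mlkl (GRCm38.p6 chr8:111338156-111338455, minus strand) are printed, in the layout used above, because these 3 genes were lower with JQ1. They were picked for that direction, and the adaptor genes Tradd and Ripk1 were higher.
Casp8: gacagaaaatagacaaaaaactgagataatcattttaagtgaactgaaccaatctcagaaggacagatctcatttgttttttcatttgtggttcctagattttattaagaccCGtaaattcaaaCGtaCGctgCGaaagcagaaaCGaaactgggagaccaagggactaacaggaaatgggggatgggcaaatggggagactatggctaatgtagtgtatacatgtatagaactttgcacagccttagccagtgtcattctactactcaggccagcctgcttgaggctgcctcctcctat
Ripk3: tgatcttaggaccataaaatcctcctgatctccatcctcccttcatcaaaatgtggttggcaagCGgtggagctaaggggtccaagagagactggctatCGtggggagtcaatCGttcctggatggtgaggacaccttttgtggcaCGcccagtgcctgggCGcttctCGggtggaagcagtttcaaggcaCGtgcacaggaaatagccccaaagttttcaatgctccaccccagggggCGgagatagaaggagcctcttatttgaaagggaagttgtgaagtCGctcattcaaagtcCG
Mlkl: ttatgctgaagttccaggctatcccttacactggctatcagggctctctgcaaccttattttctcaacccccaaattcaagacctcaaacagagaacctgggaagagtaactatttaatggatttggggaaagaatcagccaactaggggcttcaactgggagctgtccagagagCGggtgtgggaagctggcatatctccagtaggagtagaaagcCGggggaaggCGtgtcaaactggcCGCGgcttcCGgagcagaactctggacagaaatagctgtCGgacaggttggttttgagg
They hold 5, 10 and 7 CG dinucleotides, in that order.

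Upstream of these, Tradd and Ripk1 were higher with JQ1. Tradd, the adaptor of TNF receptor 1, had 18.8, 16.0 and 15.1 TPM with JQ1, against 10.8, 8.51 and 8.11 TPM with DMSO (log2 change 0.80, SE 0.22, adjusted p = 0.0156). Ripk1, a kinase that serves survival, apoptosis and necroptosis, had 9.58, 7.65 and 10.0 TPM with JQ1, against 5.22, 6.3 and 3.98 TPM with DMSO (log2 change 0.72, SE 0.22, adjusted p = 0.0286). Neither gene's groups overlapped. Leaving out a library ended the call of Tradd (JQ1 library 1, 0.0583, or DMSO library 3, 0.0541) and that of Ripk1 (JQ1 library 1, 0.0787, JQ1 library 3, 0.0865, DMSO library 1, 0.0595, or DMSO library 3, 0.103). The log2 change of Ripk1 was 0.47 with a pseudocount of 5. With SAHA, Ripk1 had 8.73, 8.54 and 5.91 TPM and with VPA 5.89, 9.49 and 7.85 TPM, both overlapping DMSO (adjusted p = 0.248 and 0.265). Fadd, which joins FAS to caspase-8, lay between 0.27 and 2.12 TPM over all libraries and was not called.

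The 5 receptors included 1 higher and 1 lower gene with JQ1, which is 40% called, near the 33.9% of all tested genes. Tnfrsf1a, the main death receptor for TNF, had 23.7, 20.9 and 19.8 TPM with JQ1, against 15.6, 16.0 and 13.6 TPM with DMSO (log2 change 0.48, SE 0.16, adjusted p = 0.0352). Its groups did not overlap, yet the call was lost with the replicate block (0.0569), without the filter (0.0523), and on leaving out JQ1 library 1 (0.114), JQ1 library 2 (0.0673) or DMSO library 1 (0.0634), 2 (0.055) or 3 (0.11). Tnfrsf21, encoding death receptor 6, had 1.87, 0.41 and 0.7 TPM with JQ1, against 5.52, 2.54 and 5.26 TPM with DMSO (log2 change −1.46, SE 0.32, adjusted p = 0.00459), and its log2 change was −2.21 with a pseudocount of 0.1 and −0.65 with 5. Tnfrsf10b, the death receptor for TRAIL in the mouse, had 10.3, 8.86 and 7.23 TPM with JQ1, against 8.54, 10.1 and 13.9 TPM with DMSO, and was not called (adjusted p = 0.337). It had 13.7, 15.1 and 12.8 TPM with SAHA and 16.2, 16.9 and 12.7 TPM with VPA (adjusted p = 0.366 and 0.228). Fas, the receptor of FAS ligand, had 0.79, 0.5 and 0 TPM with SAHA, 1.09, 0 and 1.63 TPM with VPA and 2.39, 0 and 0.47 TPM with JQ1 and was listed at 0 in all 3 DMSO libraries, so no fold is given. Tnfrsf12a, the TWEAK receptor, which has no death domain, lay between 23.6 and 49.7 TPM and was not called.

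In the direct comparisons between drugs, calls came from the pairs with JQ1. SAHA against JQ1 called 16 of 37 genes (43.2%), 11 higher and 5 lower, where 33.3% of all tested genes were called, 21.3% higher and 11.9% lower. VPA against JQ1, which were both given for 36 h, called 13 (35.1%), 9 higher and 4 lower, where 33.2% of all tested genes were called, 22.9% higher and 10.3% lower, so the apoptosis genes were called about as often as all tested genes. SAHA against VPA called 0 by limma, with 3 at an unadjusted p under 0.05, where 0.452% of all tested genes were called. Of all 12836 tested genes, 1464 passed that unadjusted threshold. With median-of-ratios scaling, the SAHA and JQ1 pair had 8 genes higher and 6 lower and the VPA and JQ1 pair also 8 and 6, and this scaling shifted the median of all genes by −0.15 in the VPA and JQ1 pair. Over all tested genes, the split was then 2280 higher and 2011 lower for SAHA against JQ1, against 2737 and 1533 without it, and 2253 and 1925 for VPA against JQ1, against 2945 and 1319 without it. In the SAHA and JQ1 pair, the number higher fell to 6 without SAHA library 3 or without JQ1 library 2 and to 7 without SAHA library 1.

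Aifm1 and Casp8 stood among the genes higher in both inhibitors than in JQ1. For Aifm1 the log2 difference was 1.02 for SAHA against JQ1 (SE 0.12, adjusted p = 8.45e-05) and 0.83 for VPA against JQ1 (adjusted p = 0.000388). For Casp8 it was 1.82 (adjusted p = 0.000486) and 2.03 (adjusted p = 0.000221), and for Mlkl 2.05 (adjusted p = 0.00015) and 2.08 (adjusted p = 0.000137), in the same order. The genes lower than in JQ1 included Bnip3l, with log2 differences of −1.16 for SAHA (adjusted p = 4.56e-05) and −1.42 for VPA (adjusted p = 1.01e-05), so Bnip3l differed between SAHA and JQ1 although it was called higher with each against DMSO. Bcl2l11 gave −0.91 (adjusted p = 0.000835) and −1.43 (adjusted p = 3.21e-05), and Mcl1 −0.51 (adjusted p = 0.00743) and −0.67 (adjusted p = 0.00132). Tnfrsf10b, not called against DMSO, was higher with SAHA than with JQ1 (log2 difference 0.61, adjusted p = 0.0322) and with VPA than with JQ1 (0.73, adjusted p = 0.0131). Of these calls, that with SAHA was lost under 8 of 24 alternatives, among them leaving out SAHA library 1 (0.0686) or 2 (0.0957) or JQ1 library 2 (0.0661) or 3 (0.112), and that with VPA was lost without JQ1 library 3 (0.0524). Casp12, Htra2, Cflar, Tradd, Ripk3 and Tnfrsf21 were also called in both pairs, while Bak1, Diablo and Dffb were called in SAHA against JQ1 alone. The pairs were not tested against each other. In SAHA against JQ1 the Ripk3 and Dffb groups overlapped, and these calls were lost under 13 and 16 alternatives, with the highest adjusted p without JQ1 library 2 for Ripk3 (0.159) and without JQ1 library 1 for Dffb (0.162). In the same pair, leaving out a library ended the call of Bak1 (SAHA library 3, 0.0609, or JQ1 library 1, 0.0537), of Cflar (SAHA library 1, 0.0678, SAHA library 3, 0.0669, or JQ1 library 2, 0.0754) and of Tnfrsf21 (SAHA library 2, 0.0581, SAHA library 3, 0.0877, JQ1 library 2, 0.0992, or JQ1 library 3, 0.0795). In VPA against JQ1, the call of Htra2 (log2 difference 0.56, adjusted p = 0.0148) was lost without VPA library 3 (0.0574), without JQ1 library 2 (0.0586) and with median-of-ratios scaling (log2 difference 0.37, adjusted p = 0.089).

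The printed promoters hold few or many CG dinucleotides, the base pair step at which most DNA methylation occurs in mammals. They were picked among the called genes, and others with a JQ1 call lay between, such as Ripk1 (22, higher) and Aifm1 (21, lower). Of the 44 genes, 38 matched the RefSeq promoter table (GRCm38.p6), which holds 27025 promoters of 300 bases with a median of 7 CG dinucleotides, and the 38 had a median of 20.5. The table includes genes whether or not they were expressed in these cells, while all but 5 of the 38 passed the expression filter. Promoters of tested genes alone were not summarized, so all values for the 38 beside all promoters, also for the motifs below, set unlike gene sets together. The 5 matched genes that were higher with JQ1 had a median of 27, between 11 (Tnfrsf1a) and 42 (Diablo), and the 9 that were lower had a median of 11, between 3 (Casp12) and 21 (Aifm1). The 19 tested genes without a JQ1 call had a median of 22, between 5 (Xiap) and 46 (Apaf1). The ranges of all 3 sets overlap, and no test was made. Bnip3l, Tradd and Htra2 were called with JQ1 but had no matched promoter. Sequencing of 3′ ends does not show which start a gene used. The E-box CACGTG, which reads alike on both strands, was in 5 of the 38 promoters (13.2%, against 7.24% of all promoters): Bax, Bnip3, Fas, Ripk3 and Tnfrsf21. In the Ripk3 promoter printed above it starts at base 190. The TATA box TATAAA, searched on both strands, was in the Cflar promoter alone (2.63%, against 14.2% of all promoters). A match is a description of the letters and not of a bound site.

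**Figure D3:**
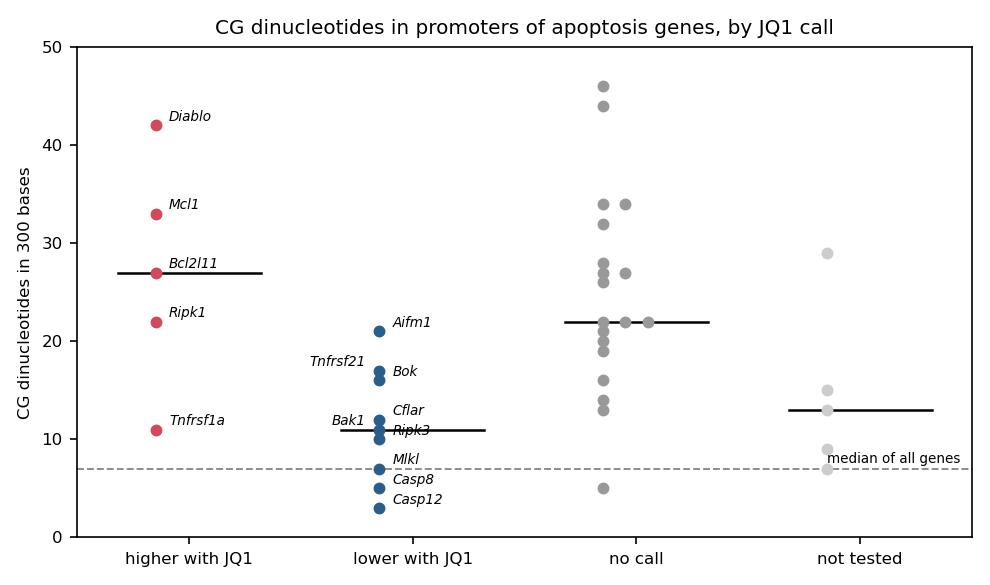
Number of CG dinucleotides (y axis) in the 300-base RefSeq promoters of 38 apoptosis genes, by their call in JQ1 against DMSO (x axis); each point is 1 gene, solid lines are medians and the dashed line is the median of 27025 promoters of genes expressed here or not. The genes lower with JQ1 have a median of 11, those higher with JQ1 a median of 27.

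Neighbouring genes were called together in some pairs and not in others, where 33.9% of all tested genes were called with JQ1. In the RefSeq gene order of GRCm38.p6, Cflar and Casp8 lie next to each other on chromosome 1, with no protein-coding gene between them, and both were lower with JQ1. Casp12 lies beside Casp4 on chromosome 9. Casp4, an inflammatory caspase that is not among the 44 genes, had 0.4, 0 and 0.81 TPM with JQ1, against 3.53, 1.59 and 1.15 TPM with DMSO (log2 change −1.11, adjusted p = 0.0408), and this call was lost under 12 alternatives, among them leaving out JQ1 library 1 (0.0839) or 2 (0.138), DMSO library 1 (0.156) or 2 (0.0661), any VPA library (0.052 to 0.0524) or SAHA library 1 (0.0521). Its log2 change was −2.47 with a pseudocount of 0.1 and −0.38 with 5. Casp1, on the other side of Casp4, was not called (log2 change −0.82, adjusted p = 0.198), and of the adjacent pair Bcl2l13 and Bid neither was called.

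A list of 78 further genes of cell death was examined beside the 44, and 54 were tested. With JQ1, 3 were higher and 16 lower, which is 35.2% called, near the 33.9% of all tested genes, with a median log2 change of −0.26. The split was 4 higher and 8 lower under median-of-ratios scaling, and the same under quantile normalization. With SAHA 0 were higher and 2 lower (3.7%, against 5.19% of all tested genes), and with VPA 0 were called by limma. At an unadjusted p under 0.05 there were 14 of the 54 with VPA, beside 2359 of all 12836 tested genes. Birc5, encoding survivin, an IAP-family protein needed for chromosome segregation, had 78.9, 79.3 and 73.2 TPM with JQ1, against 333, 329 and 328 TPM with DMSO (log2 change −2.08, SE 0.06, adjusted p = 9.43e-10). Trp53, encoding p53, had 8.28, 6.76 and 6.07 TPM with JQ1, against 13.1, 31.7 and 23.5 TPM with DMSO (log2 change −1.49, SE 0.32, adjusted p = 0.00383). Both genes were lower without overlap, and both calls held under all 24 alternatives. Pdcd4, a translation inhibitor, was higher, with 45.6, 43.6 and 36.7 TPM with JQ1, against 15.3, 13.1 and 14.2 TPM with DMSO (log2 change 1.497, SE 0.13, adjusted p = 6.12e-06). Pdcd5 had 87.3, 98.8 and 97.6 TPM with JQ1, against 184, 215 and 179 TPM with DMSO (log2 change −1.02, adjusted p = 8.51e-06). Traf3, a signalling adaptor of TNF-family receptors, was lower, with 1.22, 3.14 and 4.11 TPM with JQ1, against 7.47, 9.79 and 8.29 TPM with DMSO (log2 change −1.39, adjusted p = 0.0211), and its call was lost without JQ1 library 1 (0.0816) or DMSO library 2 (0.0657), with a log2 change of −0.80 at a pseudocount of 5. Becn1 and Trp53bp2 were the other 2 higher genes, at log2 changes of 0.71 (adjusted p = 0.00397) and 0.70 (adjusted p = 0.0393). The call of Trp53bp2 was lost under 8 alternatives, among them leaving out any DMSO library (0.0779 to 0.0881), JQ1 library 1 (0.0986) or 3 (0.115) or VPA library 2 (0.0508). The remaining 11 lower genes had log2 changes between −0.96 (Dap) and −0.37 (Vdac2). Of these 11, only the call of Dap held under all alternatives, those of Cycs, Pdcd6, Parp1 and Bag1 were lost under 12 to 15, and Vdac2 was at −0.15 with quantile normalization (adjusted p = 0.251).

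With SAHA, the 2 lower genes were Sharpin, a subunit of the linear ubiquitin ligase that restrains death signalling, and Aven, an inhibitor of apoptosis that binds BCL-XL and APAF1. Sharpin had 14.2, 12.3 and 18.7 TPM with SAHA, 18.2, 18.2 and 14.1 TPM with VPA and 18.9, 14.9 and 20.3 TPM with JQ1, against 26.9, 27.5 and 28.1 TPM with DMSO. All drug libraries lay below the DMSO range, and the log2 change was −0.85 with SAHA (SE 0.17, adjusted p = 0.0183), −0.68 with VPA (adjusted p = 0.0516, not called) and −0.59 with JQ1 (adjusted p = 0.0211, lost under 5 alternatives, among them leaving out JQ1 library 2, 0.0803, DMSO library 2, 0.0527, or DMSO library 3, 0.0569). Aven averaged 1.51 ± 0.50 TPM with SAHA and 4.26 ± 1.31 TPM with DMSO (SD, n = 3 each; log2 change −1.05, adjusted p = 0.0462). In neither gene did SAHA overlap DMSO, but the SAHA calls were lost under 6 and 14 alternatives. Leaving out SAHA library 1 or 2 or any DMSO library gave Sharpin with SAHA an adjusted p of 0.0547 to 0.0674, and leaving out any SAHA or VPA library, JQ1 library 1, DMSO library 2 or DMSO library 3 gave Aven one of 0.0538 to 0.153.

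**Figure D4:**
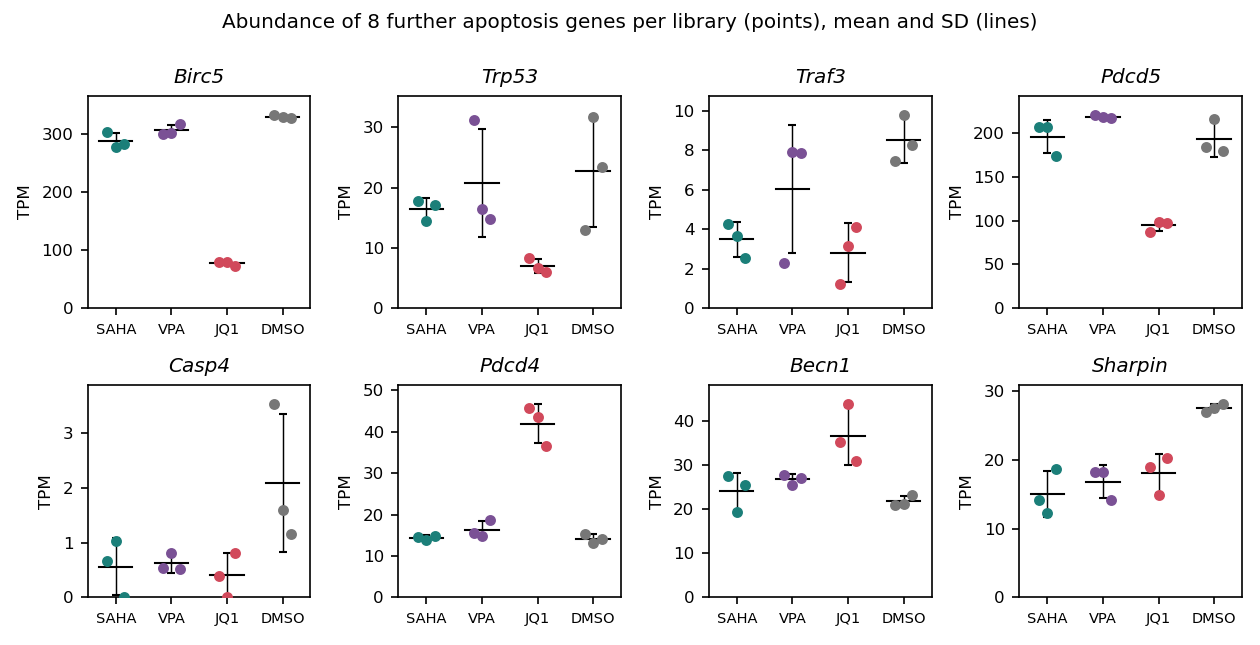
TPM (y axes, linear, from 0) of 8 genes from the further list; points are libraries, horizontal lines are group means and bars are SD of 3 libraries, with groups SAHA, VPA, JQ1 and DMSO from left to right. Birc5 and Pdcd5 are low and Pdcd4 is high in the 3 JQ1 libraries, where Birc5 lies between 73.2 and 79.3 TPM.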

How the data were processed

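The authors deposited TPM per gene and library, and the deposited columns sum to between 999999.3 and 1000000.6, so read depth is not kept. Per the file headers the columns carry RSEM's gene-level suffix, and per the labels' protocols the libraries were made with a QuantSeq 3′ FWD kit. According to the submitters' processing notes, the tools were RSEM, STAR, edgeR and bcl2fastq 2.17, and the genome was mm39. No role is given for each. A further 3 sheets that repeat these values were not used.

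A gene was tested if 3 or more libraries reached 1 TPM (12836 genes). After adding a pseudocount of 1, log2 values of all 12 libraries were fitted with 4 group means in limma 3.58.1 (R 4.3.3, intensity trend), two-sided, with Benjamini-Hochberg adjustment over all 12836 genes and a threshold of 0.05. Folds of low genes are understated on this scale. Figures used Python 3.11.15 and matplotlib 3.10.9. Of the 44 genes, a fixed set of regulators has values for every library. Other genes called against DMSO have them for the JQ1 and DMSO libraries. Their SAHA and VPA values are given per library, as ranges or not at all. Of the 78 further genes, up to 6 called per drug were named by size of change. Becn1, Trp53bp2, Dap, Vdac2, Cycs, Pdcd6, Parp1, Bag1, Casp1 and Bcl2l13 were named after their values were seen. The 44 genes and all lists were chosen with earlier results of these data known, so no count is independent evidence. Alternatives covered the pseudocount, filter, scaling, variance model, a replicate block and leaving out each library, and those for the further list were chosen after seeing the data.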

Additional observations from a re-analysis of the deposited data

How the results depend on the processing

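Under 24 alternatives, 5499 of 5751 values of single genes kept their side of the threshold, 215 calls were lost, 37 were gained and 0 reversed. These values cover the tested genes of the 44 in all comparisons. From the further list they hold only genes called against DMSO in the main fit. Gained calls of other further genes are therefore not among the 37. Most of the values belong to genes without a call in the main fit, so the 5499 are mostly values that stayed uncalled. Direction was compared only where a gene was called in the main fit or in the alternative, so changes of sign in uncalled genes were not counted. The number of the 44 genes called was 12 to 19 for JQ1 against DMSO (16 with the replicate block), 11 to 16 for SAHA against JQ1, 12 to 15 for VPA against JQ1, and 0 throughout for VPA against DMSO and SAHA against VPA. The number tested ranged from 28 with a filter at 5 TPM to 42 without the filter. Over all tested genes, leaving out 1 library gave 3660 to 4368 calls for JQ1 against DMSO. It gave 3641 to 4226 for SAHA against JQ1 and 3649 to 4273 for VPA against JQ1. Without JQ1 library 1, 12 of 36 tested genes of the list were called for JQ1 against DMSO, beside 3675 of all 12634 tested genes. The 7 genes higher with JQ1 became 4 without JQ1 library 1 or DMSO library 3. Over all tested genes, the 1657 higher with JQ1 then became 1278 and 1377, in that order. After rescaling without mitochondrially encoded genes and Rn18s, 9 of then 38 tested genes were higher and 10 lower with JQ1 than in DMSO. Over all 13365 genes then tested, 1836 were higher and 2469 lower. The added calls were Bcl2l1 (adjusted p = 0.0307) and Endog, which the main filter had left out. For SAHA against DMSO, the count of 2 became 1 without the filter, 0 with the 2 groups alone, 0 without the intensity trend and 1 with the replicate block, and was between 0 and 2 on leaving out 1 library. The median log2 change of those of the 44 genes that were tested was, with SAHA, 0.0224 after rescaling without mitochondrially encoded genes and Rn18s, and between −0.0255 and 0.116 on leaving out 1 library. With VPA it was 0.00039 with a filter at 5 TPM, −0.0296 with median-of-ratios scaling, −0.0325 with quantile normalization, and between 0.00255 and 0.071 on leaving out 1 library. With JQ1 it was 0.00849 without the filter, −0.0667 with median-of-ratios scaling, −0.0525 with quantile normalization, 0.00592 after the rescaling, and between −0.222 and 0.137 on leaving out 1 library. Of the further genes, the count of 2 with SAHA became 1 with a pseudocount of 5, without the filter, with a filter at 5 TPM, after the rescaling and with the replicate block, 0 with the 2 groups alone, and 0 to 2 on leaving out 1 library. The count of 0 with VPA became 2 with a pseudocount of 5, 2 with a filter at 5 TPM, 2 with median-of-ratios scaling, 1 with quantile normalization, 1 after multiplying by gene length, 1 without the intensity trend, and 0 to 1 on leaving out 1 library. The count of 19 with JQ1 became 12 with median-of-ratios scaling and 12 with quantile normalization, and 11 to 19 on leaving out 1 library. The cause of these changes was not tested.

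Deviations from the group means correlated weakly between libraries with the same replicate number, at −0.045 to 0.079 over 18 pairs (median 0.006). Over 36 pairs with different numbers the correlation was −0.067 to 0.056 (median −0.009). Of 12 libraries, 6 correlated best with their own number. The labels do not say that a number stands for a shared culture, so the numbers were not taken as pairs in the main fit. Over all genes, the 666 calls for SAHA against DMSO became 365 to 644 on leaving out 1 library, 369 with the 2 groups alone and 402 without the intensity trend, and the 548 for VPA became 295 to 515, 243 and 341. For SAHA against VPA, 58 calls became 96 with median-of-ratios scaling, 24 with the replicate block, 19 with the 2 groups alone, 14 without the intensity trend and 14 at the fewest on leaving out 1 library. TPM holds no depth, so how far counting error limits the low genes, such as Casp8, Casp12, Fas and Endog, is unknown.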
